A study of Homo sapiens with 16 samples.

Results

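The 10 glycolysis genes described here were SLC2A1, HK1, HK2, PFKFB3, ALDOA, GAPDH, PGK1, ENO1, PKM and LDHA. They were chosen by name for their place in glucose uptake and glycolysis, and their values are the bases called in m6A-eCLIP libraries inside each gene's hg38 span on the gene's strand. Of the 10, 9 are among the 13087 protein-coding and long noncoding genes with a called base in any of the 8 libraries, and LDHA had none. In all, 314 of the 452349 bases called in any library lay in these genes.

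The study mapped N6-methyladenosine (m6A) in U87 MG, an established human glioma cell line called U87 below, and in U87-R, its temozolomide-resistant derivative. The STM2457 group was U87-R given 50 µM STM2457 for 96 hours, with 2 libraries. The U87-R group, with 3 libraries, and the U87 group, with 3 libraries, carried the DMSO control label. The medium of U87-R held 50 µM temozolomide, an alkylating drug, and the labels make no exception for the cells given STM2457, so resistance and the presence of temozolomide cannot be told apart. The labels do not say whether U87-R is a single clone, whether replicates came from separate cultures, or whether the U87-R group saw its DMSO for the same 96 hours.

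Glycolysis turns glucose into pyruvate in the cytosol. Glucose enters through transporters such as SLC2A1, is trapped by hexokinases, is committed at the phosphofructokinase step that PFKFB3 tunes, and is carried through aldolase, GAPDH, phosphoglycerate kinase, enolase and pyruvate kinase. Lactate dehydrogenase then makes lactate, which glioma cells are known to produce in quantity even with oxygen present. m6A is a methyl mark on adenosines inside messenger RNA, placed mostly by the METTL3 and METTL14 complex and known to be common near stop codons and in 3′ untranslated regions. STM2457 is an inhibitor of METTL3. Antibodies against m6A also bind m6Am, a related mark that another enzyme, PCIF1, places on the first transcribed base.

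In m6A-eCLIP, fragmented polyA RNA is crosslinked to an antibody against m6A and called bases are read from the resulting libraries. Each called base carried a score, which is neither a read count nor a methylation level, and reached at most 708 in these libraries. The score can move with the amount of RNA of a gene as well as with its methylation. The matched input libraries were not analysed here, so these cannot be told apart. The depth of the libraries is unknown. The libraries listed 105900 to 110875 called bases with STM2457, 149477 to 192697 in U87-R and 150135 to 182556 in U87. In a principal component analysis of all genes the second libraries of U87-R (88.6) and U87 (45.9) stood apart on the third component, where the other 6 lay between -43.1 and -6.3. Of 7 markers fixed for a glioma line, 6 had called bases in all 8 libraries and THBS1 in 6, with a summed level of 4288 to 10272 per library. Of 9 markers of other cell types, PECAM1, CD68 and OLIG2 had called bases in all 8 libraries and PTPRC, EPCAM, CDH5 and AQP4 in none, with a summed level of 225 to 647. Their part in the results was not tested.

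Several of the highest-scoring bases of these genes lay on the first transcribed bases. The 27 bases around 6 annotated starts are shown for that reason, with 12 bases before the start and 15 from it on, from the RefSeq promoter sequences on GRCh38.p14. Capitals mark bases called in at least 2 libraries of 1 group, and the sequence runs 5′ to 3′ on the gene's strand. SLC2A1 is shown over chr1:42958854-42958880 on the minus strand, HK2 over chr2:74834115-74834141 on the plus strand, PFKFB3 at its second listed start over chr10:6202920-6202946 on the plus strand, PGK1 over chrX:78104236-78104262 on the plus strand, ENO1 over chr1:8878672-8878698 on the minus strand and PKM over chr15:72231176-72231202 on the minus strand.
SLC2A1: gcgctctctggCAagaggcAagaggta
HK2: cctcAataagcCACATTGttgcatgaa
PFKFB3: gcggggcatccCAgccaagccggagag
PGK1: tgcccgcgcggtgttccgCATTctgca
ENO1: ggcggcgcggaCAGTATctgtgggtac
PKM: CAgtggctcctTgcacagcagctgcac
Counting the first transcribed base as +1, base +1 was an A and was called in SLC2A1, HK2, PFKFB3 and ENO1, and base -1, a C, was called beside it in these 4 genes. In PGK1 the called bases were +7 to +10, and in PKM they were -12, -11 and -1. Of the 26 capitals, 10 (38.5%) are A. Among all starts listed for the genome, 48.6% of the 28455 bases called in the first 50 positions were A, against 20.5% of all positions there. Neighbouring bases often shared a score: bases +7 and +8 of PGK1 had the same score in every library, so such runs are not separate observations. The called bases -1 of SLC2A1, -8 and -1 of HK2 and -1 of ENO1 lie just outside the gene spans and are not in the sums below.

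Relative to untreated U87-R, STM2457-treated U87-R had a higher summed score at ALDOA and ENO1 and a lower summed score at SLC2A1 and PFKFB3. Of the 9 genes tested, 2 were higher and 2 were lower (limma, Benjamini-Hochberg adjusted p under 0.05 over 10520 genes). Among all genes tested 6.3% were higher and 37.8% were lower. The median change of log2(sum + 1) was 0.37 over the 9 genes and -0.68 over all genes tested. After centring every library on its own median, 1616 genes were higher and 2549 lower, against 663 higher and 3980 lower uncentred, and 4 of the 9 were then higher and 1 lower. With scores scaled to library totals 1894 genes were higher and 2218 lower, and 5 of the 9 were higher and 1 lower. Between U87-R and U87 none of the 9 passed the test, where 0.894% of all genes were higher and 0.371% lower in U87-R. With the replicate number as a block over all 8 libraries, the genes called in that comparison fell to 68, against 133 without the block. In that comparison the median change was 0.02 over the 9 genes and 0.12 over all genes, and 1316 of all genes had an unadjusted p under 0.05. Leaving out the first STM2457 library reduced the 4 called genes to 2.

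**Figure D1:**
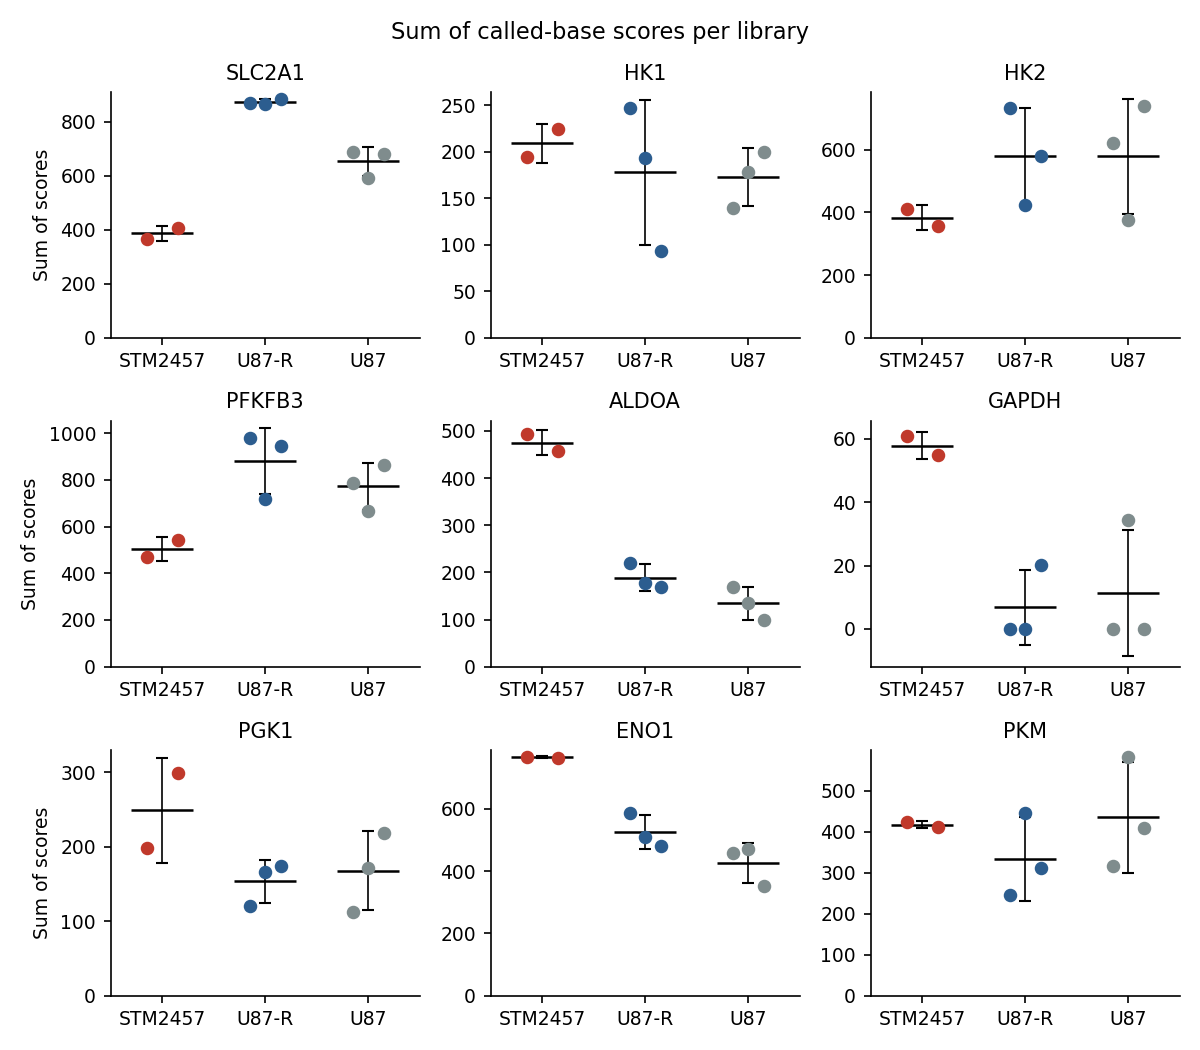
The sum of called-base scores (vertical axis, score units) is plotted for each library of STM2457, U87-R and U87, with points for libraries, bars for the mean and whiskers for the SD. Both STM2457 libraries lie below the 3 U87-R libraries at SLC2A1, HK2 and PFKFB3 and above them at ALDOA, GAPDH, PGK1 and ENO1.

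SLC2A1, the widely expressed glucose transporter that also serves the blood-brain barrier, had summed scores of 366 and 406 with STM2457, 869, 865 and 884 in U87-R, and 687, 593 and 679 in U87. The 3 groups did not overlap, with the lowest sums under STM2457 and the highest in U87-R. The mean was 386 ± 28.5 with STM2457 (SD, n = 2), 873 ± 10.2 in U87-R and 653 ± 52.5 in U87 (SD, n = 3 each). STM2457 minus U87-R was -1.18 ± 0.13 in log2(sum + 1) (limma adjusted p = 0.000234), and -0.62 (limma adjusted p = 0.031) once libraries were centred. U87-R minus U87 was 0.42 ± 0.12 with an unadjusted limma p of 0.00606 and an adjusted p of 0.169. SLC2A1 had 9 and 13 called bases with STM2457, 21, 20 and 22 in U87-R, and 21, 18 and 18 in U87.

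Most of the SLC2A1 score came from a cluster 1131 to 1642 bases before the gene's annotated 3′ end on chromosome 1. Its highest base by mean score, position 42926587, scored 79.7 and 85.7 with STM2457, 109, 120.3 and 113 in U87-R, and 101, 91.4 and 105 in U87. That is a change of -0.46 ± 0.10 in log2(score + 1) (limma adjusted p = 0.0118), which did not pass when libraries were centred (-0.08, adjusted p = 0.782). Position 42926626 scored 42.3 and 48.9 with STM2457, 121, 131 and 128 in U87-R, and 114, 100.4 and 113 in U87, a change of -1.45 ± 0.11 (limma adjusted p = 0.000109). At position 42926619 both STM2457 libraries were again the lowest, with 36.5 and 84.0, against 121, 131 and 127 in U87-R (limma adjusted p = 0.0256, and 0.103 when centred). Position 42926617 was listed in neither STM2457 library and scored 45.5, 57.7 and 78.2 in U87-R (limma adjusted p = 0.000243), and position 42926881 likewise was unlisted with STM2457 and scored 21.3, 47.2 and 44.5 in U87-R (limma adjusted p = 0.000338). Position 42926639 was also listed in neither STM2457 library, and in U87 it was missing from the second. At the other end of the gene the 2 bases tested near the start went different ways. Base +8 scored 0 and 2.61 with STM2457 and 6.63, 5.86 and 25.0 in U87-R, and did not pass. At base +1 the order was turned round. The first transcribed base, capital A at +1 in the sequence above, scored 95.6 and 87.2 with STM2457, 46.1, 49.3 and 53.3 in U87-R, and 35.2, 44.1 and 40.1 in U87, a change of 0.87 ± 0.16 (limma adjusted p = 0.00637). Of 22 SLC2A1 bases tested, 10 were lower and this 1 was higher with STM2457. In the background, 6.65% of the 188742 bases tested were higher and 16.9% lower.

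HK1 and HK2 are hexokinases, which phosphorylate glucose. HK1 is the widely expressed form and HK2 the form known to be high in gliomas. HK1 summed to 194 and 224 with STM2457, 247, 193 and 93.5 in U87-R, and 139, 179 and 200.2 in U87, so that all 3 groups overlapped (0.34 ± 0.39, limma adjusted p = 0.507). Its single bases went both ways. Position 69318851 on chromosome 10 had its highest scores with STM2457, 37.7 and 41.5, against 26.0, 22.0 and 11.0 in U87-R (1.05 ± 0.44, limma adjusted p = 0.143). Position 69368581 scored 46.7 and 44.4 with STM2457 and 24.7, 17.9 and 0 in U87-R (adjusted p = 0.199). Position 69401024, which lies 858 bases before the 3′ end, was listed in neither STM2457 library and scored 24.1, 18.1 and 14.7 in U87-R and 24.3, 20.7 and 32.8 in U87 (limma adjusted p = 0.000778). Of 19 HK1 bases tested, 3 (15.8%) were lower and none was higher, where 16.9% of all bases tested were lower and 6.65% higher. The other 2 were positions 69401037 and 69318890 (limma adjusted p = 0.00643 and 0.044), neither of them listed with STM2457.

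HK2 summed to 413 and 355 with STM2457, 733, 424 and 581 in U87-R, and 622, 377 and 739 in U87. Both STM2457 sums were below all 3 U87-R sums, while the second U87 library lay between them, and the change of -0.56 ± 0.31 did not pass (limma adjusted p = 0.171). Its direction turned to 0.13 when scores were scaled to library totals, and centred libraries did not separate either (limma adjusted p = 0.993). The HK2 change passed by the number of called bases (-0.71, limma adjusted p = 0.0253) and without both untreated second libraries (-0.77, limma adjusted p = 0.0126). HK2 had 12 and 16 called bases with STM2457, 24, 23 and 23 in U87-R, and 20, 17 and 26 in U87. Base +3, in the HK2 sequence above, was the highest of the gene by the mean of the 3 group means, STM2457 included, but not by the U87-R mean. It scored 128 and 110.3 under STM2457, 89.0, 64.6 and 75.4 in U87-R, and 104, 52.7 and 83.8 in U87 (0.64 ± 0.28, limma adjusted p = 0.154). Its STM2457 scores lay above all U87-R scores. Position 74891025 on chromosome 2, 2334 bases before the 3′ end, was listed in neither STM2457 library and scored 82.3, 38.8 and 74.9 in U87-R and 94.9, 44.3 and 63.5 in U87 (limma adjusted p = 0.000126). Its neighbour, position 74891067, 2292 bases before the 3′ end, scored 84.8 and 78.0 with STM2457 and 83.8, 101 and 93.8 in U87-R (-0.19 ± 0.12, limma adjusted p = 0.312, and 0.19 when centred). Position 74891309 had 0 and 5.38 with STM2457 and 40.5, 26.6 and 43.0 in U87-R (limma adjusted p = 0.00679). Of 26 HK2 bases tested, 5 (19.2%) were lower and none was higher, where 16.9% of all bases tested were lower and 6.65% higher.

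PFKFB3 makes fructose-2,6-bisphosphate, the activator of phosphofructokinase. It summed to 469 and 541 with STM2457, 980.0, 719.8 and 947 in U87-R, and 789, 665 and 862 in U87. The STM2457 sums lay below every untreated sum, and U87-R and U87 overlapped. The mean was 505 ± 50.9 with STM2457 (SD, n = 2), 882 ± 142 in U87-R and 772 ± 99.4 in U87 (SD, n = 3 each). STM2457 minus U87-R was -0.79 ± 0.18 (limma adjusted p = 0.00731). The change did not pass with libraries centred (-0.24, adjusted p = 0.299) or scaled to totals (-0.10, adjusted p = 0.599), nor without the first STM2457 library (adjusted p = 0.0777). PFKFB3 had 22 and 19 called bases with STM2457, 40, 28 and 36 in U87-R, and 27, 32 and 34 in U87.

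The highest PFKFB3 bases sat in a stretch 30097 to 31212 bases from the second listed start and far upstream of the annotated 3′ end, on chromosome 10. Position 6233705 scored 60.4 and 84.0 with STM2457, 113, 103 and 127 in U87-R, and 112, 90.0 and 105 in U87 (-0.67 ± 0.17, limma adjusted p = 0.0267, and 0.396 when centred). Position 6233460 scored 69.5 and 73.9 with STM2457 and 97.1, 115 and 92.7 in U87-R (-0.49 ± 0.14, limma adjusted p = 0.0392, and 0.77 when centred). Position 6234041 in the same stretch scored 63.7 and 61.6 with STM2457 and 73.7, 64.6 and 66.2 in U87-R, which the test did not separate (adjusted p = 0.681). Position 6233029 had 0 and 2.69 with STM2457, 63.5, 45.6 and 80.0 in U87-R, and 54.7, 48.0 and 47.7 in U87 (limma adjusted p = 0.000624). Positions 6233120 and 6233841 were listed in neither STM2457 library and in every untreated one (adjusted p = 0.00014 and 0.000916). Among all bases tested, 16.9% were lower and 6.65% higher with STM2457. Of 35 PFKFB3 bases tested, 9 (25.7%) were lower and 1 (2.86%) was higher. The higher one, singled out after its values were seen, was base +1 of the second listed start shown above, with 81.4 and 78.7 under STM2457, 41.5, 37.2 and 52.7 in U87-R, and 45.5, 38.8 and 44.2 in U87 (0.87 ± 0.19, limma adjusted p = 0.0136, and 0.0616 without the first STM2457 library).

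**Figure D2:**
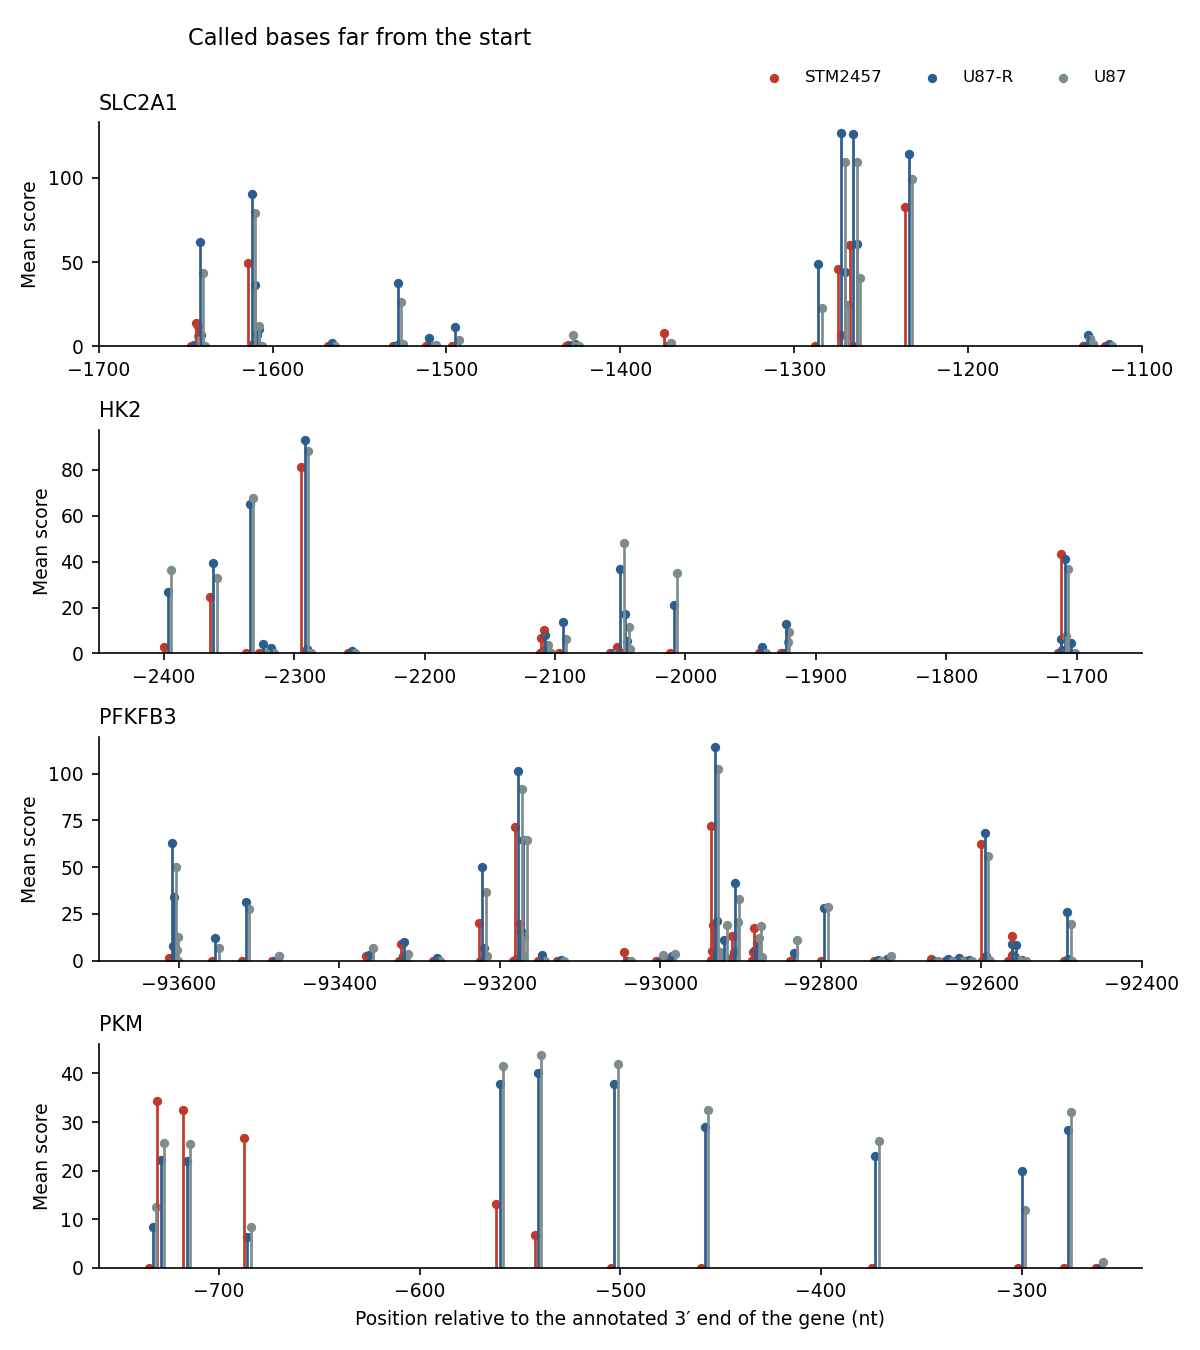
Mean score per group (vertical axis, score units) of called bases in 4 genes is drawn by distance from the gene's 3′ end as annotated (horizontal axis, nt), with STM2457, U87-R and U87 side by side. Several bases that are high in both untreated lines have no STM2457 score, such as those 503 and 458 nt from the end of PKM, while neighbours such as the HK2 base 2292 nt from the end keep one.

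ALDOA, the aldolase that splits fructose-1,6-bisphosphate, summed to 493 and 456 with STM2457, 221, 178 and 168 in U87-R, and 169, 136 and 99.0 in U87. Both STM2457 libraries were above every untreated library, and U87-R overlapped U87 by 1 library. The mean was 475 ± 25.9 with STM2457 (SD, n = 2), 189 ± 28.0 in U87-R and 134 ± 34.9 in U87 (SD, n = 3 each). STM2457 minus U87-R was 1.33 ± 0.26 (limma adjusted p = 0.00339), and 1.89 with libraries centred. ALDOA had 22 and 19 called bases with STM2457, 12, 6 and 7 in U87-R, and 7, 8 and 5 in U87. All 28 of its called bases also lie inside a second annotated protein-coding locus on the same strand, so the 2 loci cannot be told apart.

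A group of ALDOA bases 135 to 166 bases from the annotated 5′ end on chromosome 16 was called in every library. Position 30064443 scored 77.6 and 66.3 with STM2457, 27.1, 22.5 and 19.2 in U87-R, and 13.5, 12.5 and 25.0 in U87 (1.62 ± 0.36, limma adjusted p = 0.0141, and 0.0881 and 0.055 without either STM2457 library). Position 30064414 scored 67.2 and 63.2 with STM2457 and 31.0, 38.5 and 37.1 in U87-R (0.86 ± 0.24, limma adjusted p = 0.0392, and 0.141 and 0.103 without either STM2457 library). Position 30064445 scored 73.7 and 53.9 with STM2457 and 37.2, 42.9 and 38.5 in U87-R (0.66 ± 0.29, limma adjusted p = 0.157). Every STM2457 score of these 3 bases was above every untreated score. A further 12 bases, 2960 to 5735 bases from the 5′ end, were listed in both STM2457 libraries and in no untreated library. The highest of them, position 30069948, scored 23.8 and 23.5 with STM2457. These 12 entered the test through the STM2457 libraries alone and had to differ, so their calls carry no weight beyond their listing. Their scores are nevertheless part of the ALDOA sum. Of the 10 ALDOA bases tested that were called in an untreated line, 2 were higher and 0 lower, with a median change of 0.41. Among all such bases 1.96% were higher and 19.4% lower.

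GAPDH, which makes 1,3-bisphosphoglycerate, was sparsely called. It summed to 60.8 and 54.8 with STM2457, to 0, 0 and 20.3 in U87-R, and to 0, 34.4 and 0 in U87. Both STM2457 libraries had called bases, 5 and 4 of them, and only 1 library of each untreated line did. The change of 4.41 ± 1.83 did not pass (limma adjusted p = 0.0804), and its size depends on the 1 added to sums of 0. It passed with 10 added (2.23, adjusted p = 0.0289), with libraries centred (adjusted p = 0.0495), without the third U87-R library (adjusted p = 0.0296) and without the second U87 library (adjusted p = 0.0323). The highest base, position 6538292 on chromosome 12 and 79 bases from the 3′ end, scored 22.1 and 19.8 with STM2457, and 10.1 and 11.5 in the 1 library of U87-R and the 1 of U87 that listed it.

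PGK1, which makes the first ATP of the pathway, summed to 199 and 299 with STM2457, 120.1, 167 and 174 in U87-R, and 113, 172 and 219 in U87. The STM2457 sums were above all U87-R sums but not above all U87 sums (0.68 ± 0.34 against U87-R, limma adjusted p = 0.13). The number of called bases ran the other way (-0.39, limma adjusted p = 0.316). The change in the sum passed with libraries centred (1.24, limma adjusted p = 0.0144) or scaled to totals (1.37, limma adjusted p = 0.0105). It also passed with the replicate block (0.84, limma adjusted p = 0.0426). The window of 50 bases from the PGK1 5′ end, which holds +7 to +10 of the start shown above, gave 92.2% and 80.2% of the score with STM2457, 92.6%, 95.2% and 72.5% in U87-R, and 61.5%, 77.4% and 47.4% in U87. Base +7 scored 61.3 and 66.8 with STM2457, 27.8, 45.5 and 33.0 in U87-R, and 23.1, 36.5 and 25.9 in U87 (0.86 ± 0.29, limma adjusted p = 0.0708). Its STM2457 scores were above every untreated score. None of the 15 PGK1 bases tested passed.

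ENO1, the widely expressed enolase, summed to 767 and 763 with STM2457, 585, 509 and 482 in U87-R, and 457, 471 and 354 in U87. The 3 groups did not overlap, with the highest sums under STM2457 and the lowest in U87. The mean was 765 ± 3.24 with STM2457 (SD, n = 2), 526 ± 53.5 in U87-R and 427 ± 64.1 in U87 (SD, n = 3 each). STM2457 minus U87-R was 0.55 ± 0.17 (limma adjusted p = 0.0278), and U87-R minus U87 was 0.30 ± 0.15 (limma adjusted p = 0.461). The first of these did not pass without either STM2457 library (adjusted p = 0.116 and 0.106), without the third U87-R library (adjusted p = 0.0889), with the replicate block (0.45, adjusted p = 0.0841) or for the number of called bases (0.56, adjusted p = 0.354).

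The ENO1 score was concentrated on the first transcribed bases on chromosome 1. The window of 50 bases from the 5′ end gave 62.4% ± 7.23 of it with STM2457, 85.9% ± 11.6 in U87-R and 87.5% ± 9.67 in U87 (SD). Inside this window the ENO1 score averaged 477 ± 53.3 with STM2457, 448 ± 36.6 in U87-R and 371 ± 42.6 in U87. Outside it the score averaged 287 ± 56.5 with STM2457, 77.1 ± 65.0 in U87-R and 56.5 ± 48.2 in U87. The higher ENO1 sum with STM2457 than in U87-R thus lay mostly outside the window. Base +1 scored 122 and 125 with STM2457, 96.6, 99.3 and 104 in U87-R, and 109.6, 94.2 and 99.0 in U87 (0.30 ± 0.09, limma adjusted p = 0.0524). Base +3 scored 121 and 124 with STM2457 and 96.4, 111 and 104 in U87-R (0.24 ± 0.10, limma adjusted p = 0.117). Base +4 was likewise highest in the STM2457 libraries (0.30 ± 0.10, limma adjusted p = 0.0793). Away from the start, positions 8871972, 8871973 and 8866384 were listed in the STM2457 libraries alone, with scores of 17.1 to 23.4. They are the 3 ENO1 bases of 18 that passed, and they entered the test through STM2457 alone. The other 10 bases tested away from the start were called in an untreated line. Their median change was 2.0, and none of them passed.

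PKM, pyruvate kinase, makes pyruvate and ATP, and its alternative splice forms are known to differ between adult tissue and tumours. It summed to 424 and 411 with STM2457, 245, 445 and 311 in U87-R, and 315, 582 and 409.7 in U87. The groups overlapped throughout (0.37 ± 0.30 for STM2457 minus U87-R, limma adjusted p = 0.353, and -0.38 ± 0.27 for U87-R minus U87, limma adjusted p = 0.634). Of 28 PKM bases tested, 6 were higher and 6 lower with STM2457, but 5 of the higher ones entered the test through STM2457 alone and had to differ. Of the 18 called in an untreated line, 1 was higher and 6 were lower, where 1.96% of all such bases were higher and 19.4% lower. Near the PKM start, base +43 scored 33.4 and 33.7 with STM2457 and 0.969, 19.2 and 3.60 in U87-R, and did not pass. The 1 higher base was the next one, position 72231147. It scored 33.4 and 30.4 with STM2457, 0.969, 0 and 3.60 in U87-R, and 8.69, 14.4 and 2.08 in U87 (limma adjusted p = 0.0198). It did not pass with the replicate block (adjusted p = 0.0719) or without either STM2457 library (adjusted p = 0.135 and 0.119).

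The 6 lower PKM bases lay 277 to 560 bases before the 3′ end on chromosome 15. Position 72199589 scored 12.2 and 14.0 with STM2457, 37.5, 41.4 and 35.0 in U87-R, and 40.5, 41.9 and 42.4 in U87 (-1.46 ± 0.22, limma adjusted p = 0.00233). Position 72199570 scored 6.56 and 7.05 with STM2457 and 39.4, 43.9 and 36.8 in U87-R (-2.39 ± 0.23, limma adjusted p = 0.000367). Position 72199532 was listed in neither STM2457 library and scored 37.2, 41.6 and 34.9 in U87-R and 41.0, 41.1 and 43.6 in U87 (limma adjusted p = 6.18e-05). Positions 72199487 and 72199306 were missing from both STM2457 libraries in the same way (adjusted p = 0.000132 and 0.000145). Just 729 bases before the 3′ end, position 72199758 had the reverse order, with 34.1 and 34.6 under STM2457 and 21.3, 23.4 and 21.7 in U87-R, but did not pass (0.61 ± 0.24, limma adjusted p = 0.112). Near the PKM start, bases -12 and -11 each scored 24.3 and 24.2 with STM2457 and 0, 2.96 and 0 in U87-R, and neither was listed in U87.

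LDHA, the lactate dehydrogenase subunit that favours lactate formation, had no listed base in any of the 8 libraries between positions 18394563 and 18408425 of chromosome 11, and was not tested. The nearest listed bases lay 204669 bases before its span and 82286 bases after it. The authors' deposited peak lists held no peak in it either. Nothing follows from this about methylation of LDHA.

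**Figure D3:**
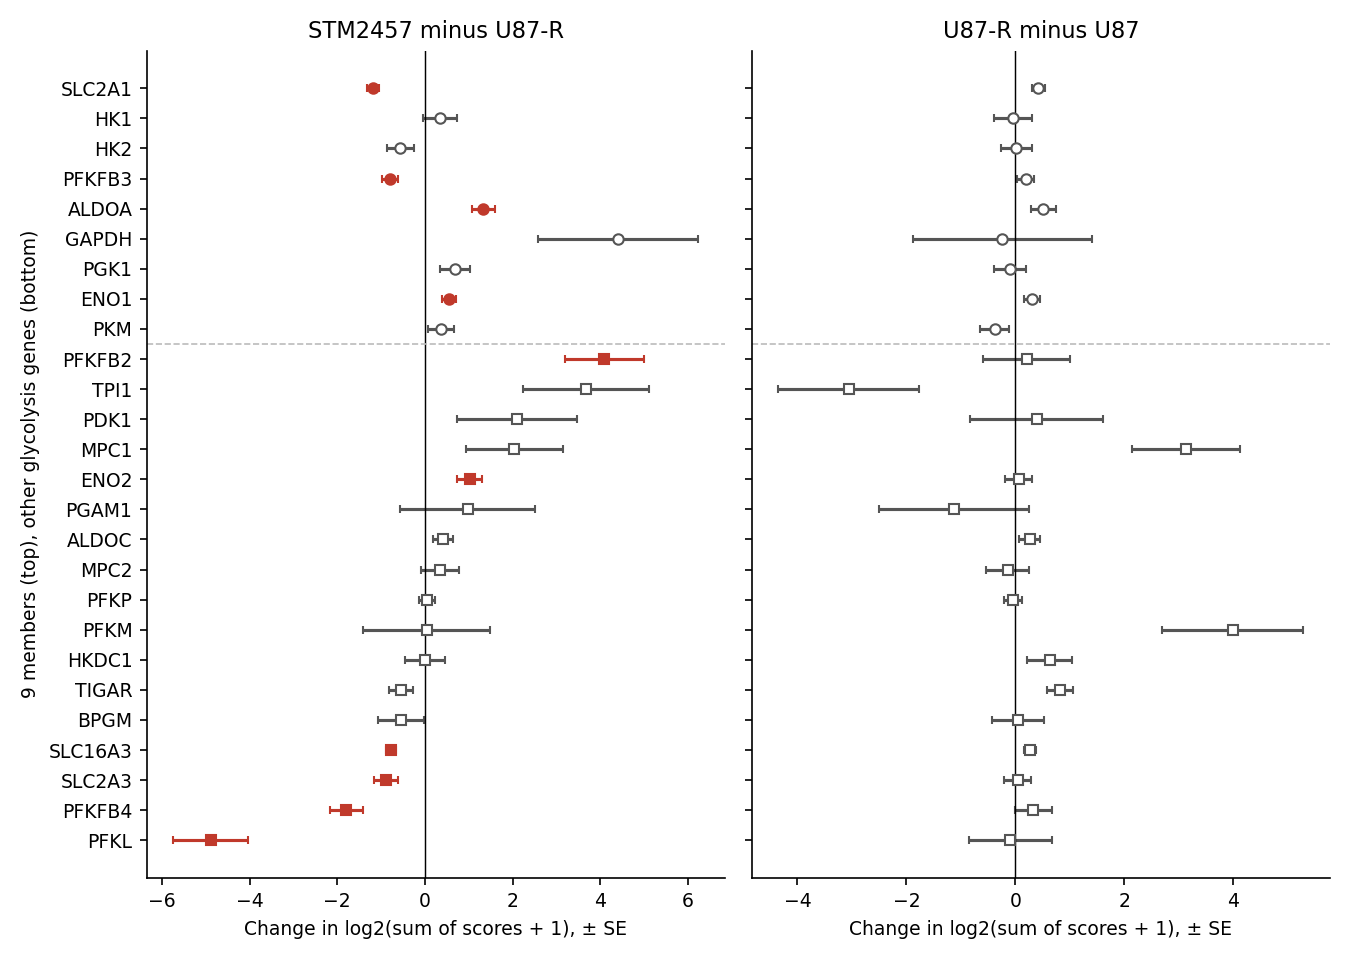
Change in log2(sum of scores + 1) with its SE (horizontal axis) for STM2457 minus U87-R on the left and U87-R minus U87 on the right, for the 9 tested members (circles) and 17 other glycolysis genes (squares), with filled red symbols for a limma adjusted p under 0.05. On the left SLC2A1 and PFKFB3 lie below 0 and ALDOA and ENO1 above it, and no symbol is filled on the right.

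The single bases were counted by their distance from an annotated start. Of 189 bases tested in the 9 genes, 27 were higher and 33 lower with STM2457 than in U87-R. Of the 28 within 50 bases of a listed start or the 5′ end, 5 were higher and none was lower, where 19.6% of all such bases were higher and 1.08% lower. Among the 28, 3 entered the test through STM2457 alone and hold 2 of the 5 higher ones, both in PKM. Of the other 25, called in an untreated line, 3 were higher (12.0%), 1 each in SLC2A1, PFKFB3 and PKM, where 10.6% of all such bases were higher and 1.35% lower, so the members' share is near the background. Of the 161 elsewhere, 22 were higher and 33 lower, where 4.36% of all such bases were higher and 20.2% lower. Among the 161, 28 entered the test through STM2457 alone, and they hold 20 of the 22 higher ones. Of the other 133, called in an untreated line, 2 (1.5%) were higher and 33 (24.8%) were lower, where 1.03% of all such bases were higher and 21.3% lower. The 2 higher ones are the ALDOA positions 30064443 and 30064414, which lie 54 and 83 bases before a listed start. With libraries centred on the bases called in all 8, 39 bases of the 9 genes were higher and 23 lower, where 8.66% of all bases were higher and 14.0% lower. These centred counts were not split by the way a base entered the test. Bases that entered through STM2457 alone, and had to differ, were 31 of the 189 in the 9 genes. Over all genes they were 11809 of 167993, so the centred shares are not on a like footing.

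Summed over the 9 genes, bases near a start carried a larger share of the score with STM2457, while single genes differed. The share was not computed over all genes. Among all bases called in an untreated line, the median change for STM2457 minus U87-R was 0.61 near an annotated start and -1.39 elsewhere. A shift in this direction was thus not particular to these genes. Over the 9 genes, the share within 50 bases of the annotated 5′ end was 29.0% ± 0.307 with STM2457 (SD, n = 2), 21.8% ± 1.10 in U87-R and 20.6% ± 1.48 in U87 (SD, n = 3 each). In HK2 it was 57.6% and 51.0% with STM2457, 29.0%, 30.5% and 27.6% in U87-R, and 32.9%, 19.2% and 29.1% in U87. In SLC2A1 it was 31.0% and 22.1% with STM2457, 6.06%, 6.84% and 8.85% in U87-R, and 6.16%, 10.9% and 7.88% in U87. The groups did not overlap in these 2 genes between STM2457 and either untreated line. Counting any listed start, PFKFB3 had 32.7% and 27.9% with STM2457 and 8.47%, 8.64% and 11.1% in U87-R, and PKM 34.5% and 32.9% with STM2457 and 0.791%, 13.6% and 2.83% in U87-R. ENO1 ran the other way, as given above, and ALDOA had 0% in both STM2457 libraries and 20.3%, 0% and 5.56% in U87-R. PGK1 overlapped, with 92.2% and 80.2% with STM2457 and 92.6%, 95.2% and 72.5% in U87-R, and HK1 and GAPDH had no score there in any library. The score outside these windows also differed: in HK2 it averaged 175 ± 0.534 with STM2457, 412 ± 113 in U87-R and 415 ± 109.6 in U87. The HK2 score inside averaged 209 ± 40.1 with STM2457, 167 ± 42.2 in U87-R and 164 ± 79.6 in U87.

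**Figure D4:**
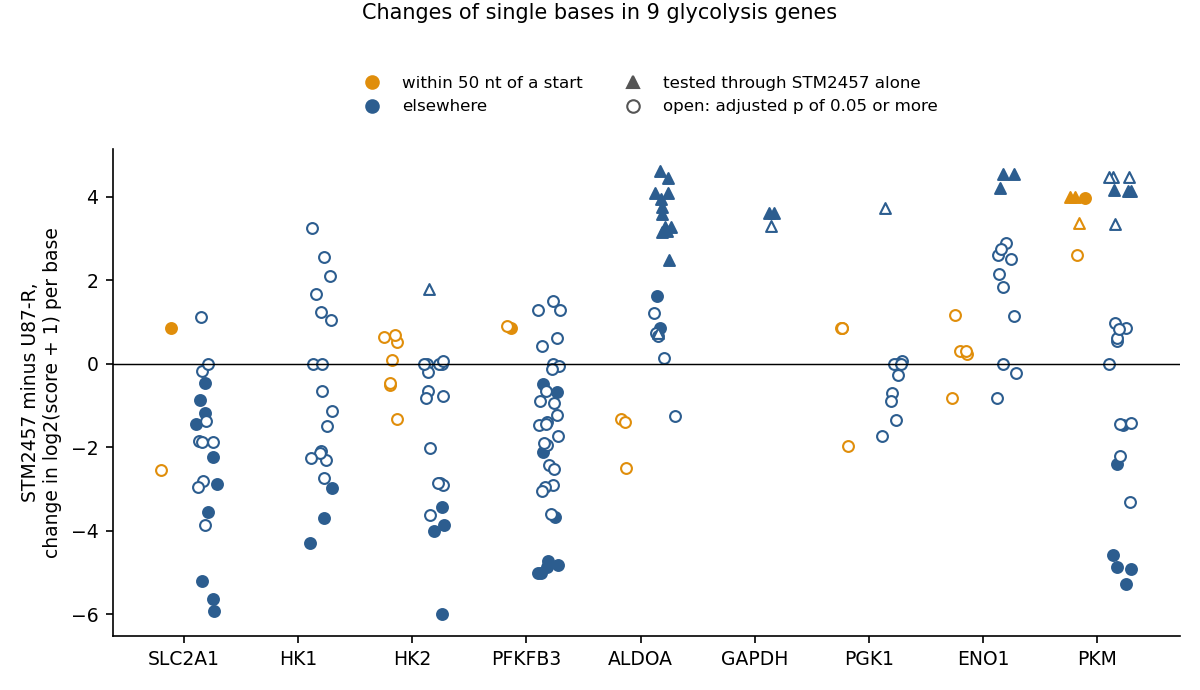
Change in log2(score + 1) per base for STM2457 minus U87-R (vertical axis) by gene, with bases within 50 nt of a start in orange and the others in blue; triangles entered the test through STM2457 alone, filled symbols have a limma adjusted p under 0.05, and bases listed in 1 group only have a size set by the 1 added. Filled symbols below 0 are all blue, and the orange filled symbols all lie above 0.

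**Figure D5:**
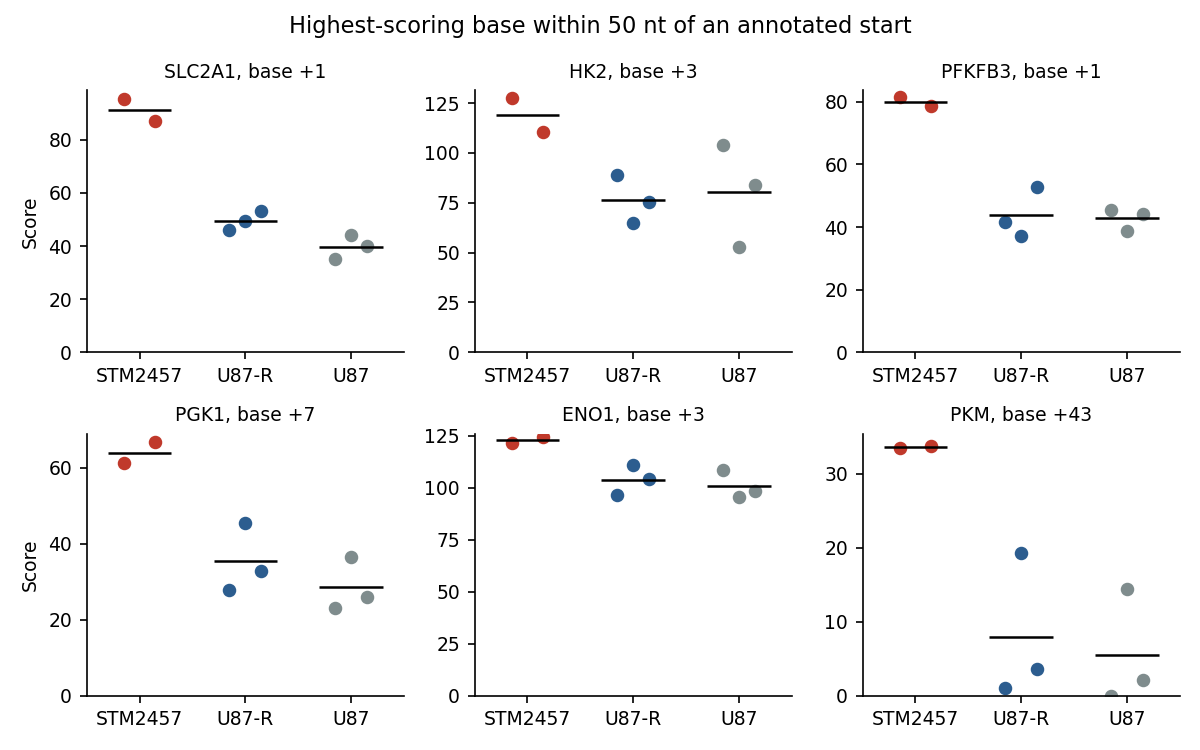
Score (vertical axis) of the highest base within 50 nt of a listed start or the 5′ end in 6 genes, by library, with bars for group means, for STM2457, U87-R and U87. Both STM2457 points lie above the 3 U87-R points in all 6 genes, as with 95.6 and 87.2 against 46.1 to 53.3 at base +1 of SLC2A1. The bases were picked by a mean that includes STM2457, and those of HK2, PGK1, ENO1 and PKM did not pass the test. Such non-overlap was not counted over all genes. All 6 bases were called in an untreated line, and of all such bases near a start 10.6% were higher and 1.35% lower. ALDOA is not drawn, and its near-start bases were listed in neither STM2457 library.

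Bases listed in all 6 untreated libraries numbered 62 in these genes. With STM2457, 16 of them (25.8%) were listed in neither library and 39 (62.9%) in both. Over all genes, 32.5% of the 60059 such bases were listed in neither STM2457 library and 51.3% in both. The missing 16 were 5 in PFKFB3, 4 in PKM, 3 in HK2, 2 in SLC2A1 and 2 in HK1, whereas the 4 such bases of ENO1, 3 of PGK1 and 5 of ALDOA were all listed in both.

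No gene or base described here passed the test between U87-R and U87. Of the 189 bases none did so (limma, lowest adjusted p = 0.112, with 20 bases at an unadjusted p under 0.05), where 0.00053% of all bases tested were higher and 0.0% lower. Leaving out the second U87-R library gave 8 called bases, 6 higher and 2 lower, where 1.8% of all bases were then higher and 0.306% lower. By summed score, U87-R was above U87 without overlap at SLC2A1 and ENO1, and below it at no gene. Among all genes tested, 11.0% were above and 5.17% below without overlap in this comparison. Against U87-R, the STM2457 sums were above without overlap at ALDOA, GAPDH, PGK1 and ENO1 and below at SLC2A1, HK2 and PFKFB3, where 17.2% of all genes were above and 49.6% below. Both comparisons use the U87-R libraries, so a high U87-R value enters each with opposite sign.

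Of 22 other genes of glycolysis and its branches, 21 had a called base and 17 could be tested. With STM2457, 2 of the 17 were higher and 4 lower than in U87-R, where 6.3% of all genes tested were higher and 37.8% lower. The median change was 0.05 over the 17 genes against -0.68 over all genes, and none passed between U87-R and U87. PFKFB2, an isoform of PFKFB3, summed to 47.2 and 11.9 with STM2457 and to 0, 0 and 2.17 in U87-R (limma adjusted p = 0.00617). ENO2, the neuronal enolase, summed to 163 and 186 with STM2457 and to 81.5, 87.3 and 86.5 in U87-R (1.02 ± 0.28, limma adjusted p = 0.0177), which did not pass with the replicate block (adjusted p = 0.0502) or without the second STM2457 library (adjusted p = 0.0715). The 4 lower genes were PFKL, PFKFB4, SLC2A3 and SLC16A3. PFKL, the liver phosphofructokinase, summed to 0 and 4.83 with STM2457 and to 70.3, 107 and 46.2 in U87-R (limma adjusted p = 0.00191, and 0.0605 for the number of called bases). PFKFB4, another isoform of PFKFB3, summed to 49.2 and 113 with STM2457 and to 258, 218 and 311 in U87-R (-1.79 ± 0.38, limma adjusted p = 0.00522, and 0.0522 without the first STM2457 library). SLC2A3, the neuronal glucose transporter, was lower by log2 change, -0.88 ± 0.27 (limma adjusted p = 0.0277). It did not pass when centred (-0.32, adjusted p = 0.207), scaled to totals (-0.19, adjusted p = 0.466), with scores of at least 10 (adjusted p = 0.0611), or without either STM2457 library (adjusted p = 0.0753 and 0.207), the first U87-R library (adjusted p = 0.0715) or the third (adjusted p = 0.0701). SLC16A3, which exports lactate, summed to 1020.4 and 1117 with STM2457, 1873, 1786 and 1792 in U87-R, and 1401, 1474 and 1695 in U87 (-0.77 ± 0.12 for STM2457 minus U87-R, limma adjusted p = 0.00129). This did not pass when centred (-0.21, adjusted p = 0.302) or scaled to totals (-0.08, adjusted p = 0.619). Its groups did not overlap and stood in the same order as those of SLC2A1.

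The authors' deposited lists of reproducible sites join the libraries of a group and have no replicate error. They were not counted over all genes, so the numbers below have no background share. The STM2457 list joins 2 libraries, against 3 for each untreated line, and these 2 listed fewer called bases. In the 10 genes the authors' deposited lists held 15 sites with STM2457, 27 in U87-R and 26 in U87. Of these, 12 were on both the authors' deposited STM2457 and U87-R lists, which is 80.0% of the STM2457 sites and 44.4% of the U87-R sites. The authors' deposited U87-R and U87 lists shared 22, or 81.5% of the U87-R and 84.6% of the U87 sites. By gene, the authors' deposited lists gave PFKFB3 4 sites with STM2457, 10 in U87-R and 11 in U87. SLC2A1 had 4 with STM2457, 8 in U87-R and 7 in U87 on the authors' deposited lists, and HK2 had 3 with STM2457, 7 in U87-R and 6 in U87. On the same authors' deposited lists ENO1 had 2 for each group, HK1 and PGK1 had 1 each with STM2457 only, and PKM, ALDOA, GAPDH and LDHA had none. The authors' deposited peaks numbered 61 with STM2457, 69 in U87-R and 63 in U87. Of the authors' deposited peaks 36 of 61 (59.0%) with STM2457 shared at least 1 base with a U87-R peak of that strand, and 53 of 69 (76.8%) in U87-R overlapped one with STM2457.

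The genes outside these lists whose summed scores followed the mean pattern of the 9 genes most closely were ATP6V1G2-DDX39B, OAZ2 and ARL2BP. Their mean absolute difference from that pattern over the 8 libraries was 0.09, 0.091 and 0.097 in centred log2(sum + 1).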

How the data were processed

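The members, the list of other glycolysis genes and the tests were chosen with earlier results of these data known. Per the labels' protocols, total RNA was polyA-selected and fragmented by a service provider before m6A immunoprecipitation and crosslinking. The build was hg38 and the tools UMI-tools, cutadapt and STAR, per the submitters' processing notes. Not given in the sources used here are the base and peak callers, the handling of reads with several matches, and all versions, so bases in genes with processed copies, such as GAPDH, ENO1, PGK1 and PKM, are uncertain. For each library the authors deposited its called bases, with a score that equals the smallest of 4 listed scores and follows no stated normalization. They also deposited per-group lists of reproducible sites and peaks, with the fraction of libraries in which each passed and a combined score. Read depth is unknown, so no counting interval is given. The 8 input samples were not analysed here, and 1 cell type marker is not reported here.

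Gene spans came from RefSeq on GRCh38.p14, and strands from the RefSeq promoter table for 27305 genes or from at least 5 called bases with 80% on 1 strand for 1791 genes. Of all called bases, 87.0% fell in exactly 1 gene. Unlisted bases were set to 0. Scores were summed per gene, and log2(sum + 1) was fitted with limma 3.58.1 in R 4.3.3 (mean-variance trend, 3 group means, all 8 libraries) for genes whose sum reached 10 in 2 or more libraries. Single bases called in 2 or more libraries of 1 group were fitted likewise as log2(score + 1). P-values were adjusted by Benjamini-Hochberg over all genes or all bases, errors after a change are SE, and p-values rest on the spread among these libraries alone, and that spread may be technical. A base passing through STM2457 alone had to differ. Data were simulated for STM2457 minus U87-R, with 10520 genes and 188742 bases. In them 53% of changes of 2 on the log2 scale were called for genes and 38.2% for bases. Changes were planted only in features with higher mean scores, so these rates do not cover sparsely called genes and bases.

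Named were all members, other glycolysis genes that were called (up to 4 per direction), and in each member the 3 bases with the highest mean score, the highest near the 5′ end and up to 3 called bases. Replicate numbers come from the sample titles. Deviations from the group means of U87-R and U87 libraries with the same number correlated at 0.101, 0.316 and 0.108. Unlike numbers reached 0.144 (U87-R 1 with U87 3) and 0.121 (U87-R 3 with U87 1), so only the second libraries stood out as a pair. For STM2457 and U87-R the value was -0.0236. The main fits used no block. The replicate block, an alternative, took the replicate number over all 8 libraries, STM2457 included. Alternatives covered the pseudocount, filters, scaling, the number of bases in place of scores, the replicate block and leaving out libraries.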

Additional observations from a re-analysis of the deposited data

Results flagged for a closer look

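On the strand opposite to PFKFB3, 149743 to 149820 bases from the gene's 5′ end, 5 called bases that no comparison used had a sum of 16.3 to 19.1 with STM2457, 0 to 3.10 in U87-R and 0 to 0.67 in U87. They are given because the lowest STM2457 sum was above every untreated library.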

How the results depend on the processing

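Of the members' changes under the alternatives, 265 kept their direction and side of the threshold, 12 passed only then, 8 no longer passed and 21 turned direction. For single bases these numbers were 823, 23, 104 and 2. SLC2A1 (-1.25 to -0.49) and ALDOA (1.19 to 2.02) passed in every alternative for STM2457 minus U87-R. The ALDOA sum holds 13 bases that entered the base test through STM2457 alone, and no alternative for sums left them out. The cause of the shifts below was not tested.

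Genes called for U87-R minus U87 numbered 133, 71 by number of bases, 68 with the replicate block, 57 to 190 leaving out 1 library and 248 without both second untreated libraries (added after seeing the data). For STM2457 minus U87-R, leaving out 1 library turned 4643 genes into 2989 (without the first STM2457 library) to 5153, and the 4 members called into 2 to 5. Scaling to totals gave 6 members, and leaving out both second untreated libraries gave 6 members and 5319 genes. The 6 other glycolysis genes became 10 without both second untreated libraries. Between the untreated lines other genes called ranged from 0 to 1 and member bases from 0 to 8 leaving out 1 library, and 2 member bases passed where 3 libraries of a group were required. STM2457 and U87-R libraries share numbers only; with the replicate block ENO1 was at 0.45 (adjusted p = 0.0841) and PGK1 at 0.84 (adjusted p = 0.0426), and no other member crossed the threshold. Turned directions for STM2457 minus U87-R were HK1 by number of bases (-0.65) and leaving out 1 library (-0.07 to 0.63), HK2 scaled to totals (0.13), PGK1 by number of bases (-0.39), and, centred, the HK2 base at 74891067 (0.19) and the PFKFB3 base at 6234041 (0.26). For U87-R minus U87 they were ENO1 (-0.16) and HK1 (0.01) by number of bases, HK2 centred (-0.14), scaled to totals (-0.08) and with scores of at least 10 (-0.03), and PGK1 with scores of at least 10 (0.05). Leaving out 1 library gave -1.72 to 1.47 for GAPDH, -0.34 to 0.35 for HK1, -0.26 to 0.23 for HK2 and -0.36 to 0.12 for PGK1, and leaving out both second libraries gave 2.21 for GAPDH and -0.06 for HK2. The share near the start was 29.5% with STM2457 within 100 bases, and 37.5% with STM2457, 25.2% in U87-R and 23.5% in U87 for any listed start. Called bases of at least 10 numbered 87.5 per library with STM2457, 85.7 in U87-R and 84.0 in U87. Scores without depth, 2 STM2457 libraries and unanalysed inputs limit all of these values.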

Other observations

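On the strand opposite to HK2, 26 called bases lay 6 to 832 bases inside the gene's 5′ end, with sums of 28.0 to 34.9 with STM2457, 25.0 to 50.0 in U87-R and 11.0 to 62.3 in U87, so that the groups overlapped. On the strand opposite to PKM 5 bases had sums of 0 to 2.63 with STM2457, 0 to 4.06 in U87-R and 8.51 to 11.6 in U87. The other 7 members had no called base on the opposite strand.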
